A study of Rattus norvegicus with 10 samples.

Results

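The livers of 3 male Sprague Dawley rats that were given sulfur mustard (SM) and then MSTF were compared with those of 3 control rats, 6 of the 10 arrays of the series. SM is a bifunctional alkylating vesicant, and MSTF is a mixture of salvianolic acids of Salvia miltiorrhiza and total flavonoids of Anemarrhena asphodeloides. Rats of the SM + MSTF group received SM under the skin at 3.5 mg/kg (0.7 of the LD50) in propylene glycol. MSTF followed 1 h later at 120 mg/kg in water by stomach tube. The methods repeat MSTF every 24 h, so by that schedule livers taken 24 h after SM had seen 1 dose. Control rats received the solvent of SM, and the methods name no treatment by stomach tube for them. The other 4 arrays came from rats given SM alone at the same dose. All livers were taken 24 h after SM, and the labels give 1 array per rat. No group received MSTF without SM, so the contrast holds the effects of both agents. The members were chosen by their treatment label, and the question was which genes lay off the control level after both agents.

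Liver RNA comes mostly from hepatocytes, which make plasma proteins, oxidise and synthesise fatty acids and clear foreign compounds, with smaller amounts from Kupffer cells, endothelial cells, stellate cells and blood. Alkylating agents cross-link DNA and halt dividing cells, and only a small share of adult hepatocytes is in cycle. Metallothioneins bind zinc and other metals and are transcribed in answer to metals, glucocorticoids and inflammatory cytokines. The receptor PPARα, which senses fatty acids, drives the Cyp4a genes and fatty acid oxidation in rodent liver. In a bulk tissue, fewer cells of a type and less RNA per cell cannot be told apart.

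Values are log2 signal after quantile normalization over all 10 arrays, and a difference is the SM + MSTF mean minus the control mean on that scale, where 1 is a 2-fold difference and ± gives the SE of the fit. A probe was tested when it lay well above background on every array of either group, which left 21638 of 41012 probes, and 8834 genes had a tested probe with a name. All 24 tested hepatocyte markers lay well above background on every control and SM + MSTF array, and albumin (Alb) read 18.18, 18.24 and 18.22 in the control group and 18.03, 18.30 and 18.15 in SM + MSTF replicates 1, 2 and 3. On each control array 51.9% to 58.6% of the probes were well above background, on each SM + MSTF array 53.4% to 57.9%, and no spot was saturated. The array barcodes placed the 3 controls and SM + MSTF replicate 3 on slide 1, the 4 SM arrays on slide 2 and SM + MSTF replicates 1 and 2 on slide 3. Replicates 1 and 2 therefore differ from the controls in slide as well as in treatment, and the slide and the treatment cannot be told apart for them. Across probes, which are not independent replicates, the log2 signals of replicates 1 and 2 correlated with r = 0.989, and replicate 3 correlated with r = 0.977 and 0.979 with those replicates and with r = 0.979 to 0.982 with the controls. Replicates 1 and 2 correlated with the controls with r = 0.983 to 0.988, so replicate 3, on the control slide, was not the SM + MSTF array nearest the controls. Controls correlated with each other with r = 0.989 to 0.991. Replicate 3 stood farthest from the rest of its group and had the lowest array weight of the 10, 0.389.

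No probe passed an adjusted p of 0.05 with a 1.5-fold change in SM + MSTF versus control, 0% of the 21638 tested, and the lowest adjusted p was 0.207. Each difference below is therefore given with its values and called higher or lower. At an unadjusted p of 0.05 there were 2173 probes, and 666 of them (3.08%) also differed at least 1.5-fold, 220 higher and 446 lower. The arrays of the groups did not overlap for 3464 probes (16%), 1814 higher and 1650 lower. Among genes, taken by 1 probe each, 1.19% were higher and 1.34% lower at an unadjusted p of 0.05 with 1.5-fold, and 9.58% were higher and 7.23% lower without overlap. By the sign of the difference alone, 4873 of the 8834 genes were higher and 3961 lower. The p-values rest on the spread within groups over all 10 arrays, the SM arrays included, which limma shares in part across probes. Within SM + MSTF that spread also holds the difference between slides 1 and 3. The median SE of a difference was 0.155. Both control genes lay at the control level. Beta-actin (Actb) differed by -0.08 and Gapdh by 0.01, and both signs turned under other settings.

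Of the 42 gene lists examined, mitosis and DNA replication had the most members at an unadjusted p of 0.05 with 1.5-fold. Of its 21 tested genes, 18 were lower in SM + MSTF, 11 of them at an unadjusted p under 0.05 with at least 1.5-fold and 8 without overlap with the controls, against the 1.34% and 7.23% of all genes. The list's median difference was -0.63, beside 0.02 over all genes, and its medians in replicates 1, 2 and 3 were -0.46, -0.41 and -1.0, with control 1 itself at -0.38. Cdc20, which activates the anaphase-promoting complex, read 8.71, 9.23 and 9.05 in the control group and 7.86, 7.95 and 7.41 in SM + MSTF replicates 1, 2 and 3. Every SM + MSTF array lay below every control, and the difference was -1.26 ± 0.25 (SE; unadjusted p = 0.000635, adjusted p = 0.322). Cyclin B1 (Ccnb1), the partner of Cdk1 at entry into mitosis, read 7.80, 8.54 and 8.21 in the control group and 7.19, 6.97 and 5.26 in SM + MSTF replicates 1, 2 and 3. Its difference was -1.71 ± 0.51 (SE; unadjusted p = 0.00799, adjusted p = 0.393), and replicate 3 was the lowest array of all 10. Kif20a, a kinesin of cytokinesis, read 8.27, 8.99 and 8.95 in the control group and 7.67, 7.45 and 5.99 in SM + MSTF replicates 1, 2 and 3, again with replicate 3 the lowest and no overlap (-1.70 ± 0.50, adjusted p = 0.393). Cyclin B2 (Ccnb2) read 6.86, 7.65 and 7.37 in the control group and 6.32, 6.03 and 5.23 in SM + MSTF replicates 1, 2 and 3, a difference of -1.43 (adjusted p = 0.393). Survivin (Birc5), a member of the chromosomal passenger complex, read 8.40, 8.33 and 7.59 in the control group and 7.56, 7.08 and 6.47 in SM + MSTF replicates 1, 2 and 3. Controls 1 and 2 lay well above all SM + MSTF arrays, while control 3 lay just above replicate 1 (-1.07 ± 0.31, adjusted p = 0.393). Cyclin A2 (Ccna2) differed by -1.17, the ribonucleotide reductase subunit Rrm2 by -0.94 and thymidylate synthase (Tyms) by -0.63, all without overlap. Cdk1 itself read 9.83, 10.59 and 10.45 in the control group and 9.83, 9.47 and 8.35 in SM + MSTF replicates 1, 2 and 3, and replicate 1 equalled control 1 to 2 decimals. Bub1 (-0.74) and Aurka (-0.59) also overlapped with the controls. The licensing factors Mcm2, Mcm3, Mcm4 and Mcm7, by contrast, differed by 0.08, -0.06, 0.12 and 0.15 with unadjusted p of 0.308 to 0.82. Without replicate 3 the number of genes lower at an unadjusted p of 0.05 with 1.5-fold was 6 (Ccnb1, Ccnb2, Cdc20, Birc5, Kif20a and Rrm2), where 1.45% of all genes were lower and 1.77% higher by that rule. Within slide 1, where replicate 3 alone was set against its 3 controls, only Ccnb1 of the 21 passed the adjusted test. Rats given SM alone had a median of -0.71 over the same list, and that comparison uses the same 3 controls.

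**Figure D1:**
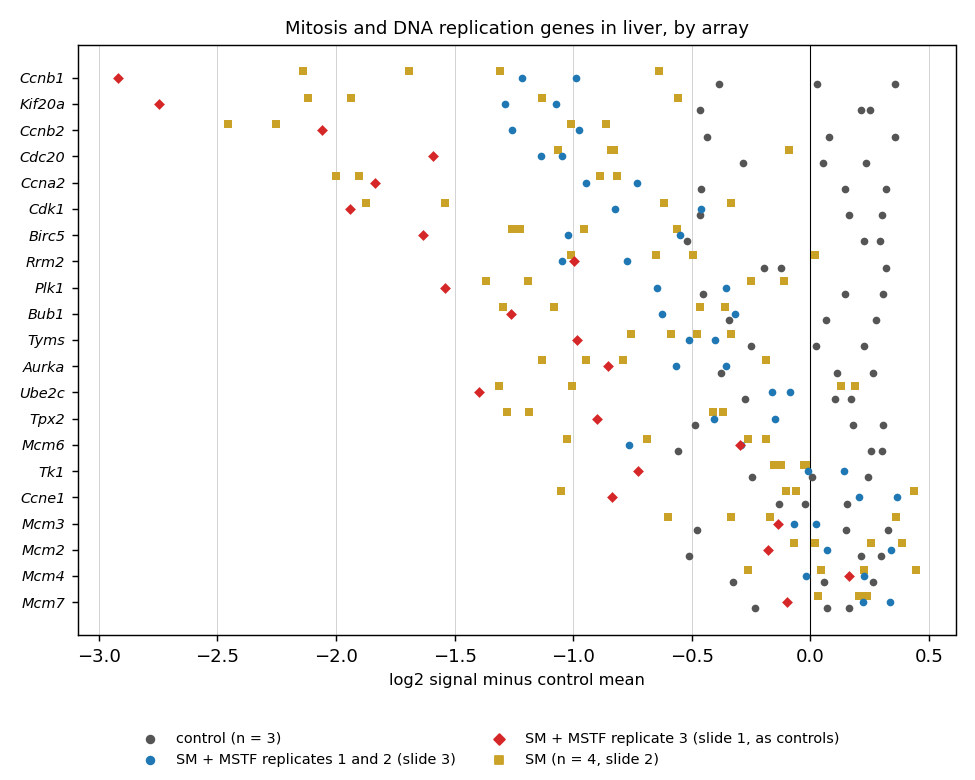
Log2 signal minus the control mean (x axis) for the 21 tested genes of mitosis and DNA replication (y axis, ordered by the SM + MSTF difference), with 1 point per array. Replicate 3 (red diamonds) lies left of replicates 1 and 2 for most genes, at -2.92 for Ccnb1, and the Mcm genes at the bottom scatter around 0.

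The promoters of Cdc20 and Ccnb2 are shown because the members of this list were low together. They are the 250 bases before the annotated start in RefSeq (GRCr8), 5′ to 3′ in the direction of the gene, with CCAAT and TTTGAA, the letters of the cell cycle homology region, in capitals on either strand.
Cdc20 (chr5:137255800-137256049, - strand): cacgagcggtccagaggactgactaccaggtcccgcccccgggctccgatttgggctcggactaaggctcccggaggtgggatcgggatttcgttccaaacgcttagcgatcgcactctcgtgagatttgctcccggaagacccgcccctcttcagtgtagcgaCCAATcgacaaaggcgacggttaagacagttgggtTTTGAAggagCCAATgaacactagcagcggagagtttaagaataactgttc
Ccnb2 (chr8:79981659-79981908, - strand): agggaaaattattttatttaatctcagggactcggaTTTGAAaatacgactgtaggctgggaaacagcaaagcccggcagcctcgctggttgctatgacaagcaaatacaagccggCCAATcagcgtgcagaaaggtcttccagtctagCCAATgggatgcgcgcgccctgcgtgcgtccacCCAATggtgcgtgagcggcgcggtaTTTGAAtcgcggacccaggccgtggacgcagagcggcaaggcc
Cdc20 held TTTGAA 51 bases before the start with CCAAT 86 and 41 bases before it. Ccnb2 held TTTGAA at 214 and 43 bases and CCAAT 3 times, between 134 and 68 bases before the start. Of all 33465 promoters of this length, 16.2% held TTTGAA, 34% held CCAAT and 5.87% held both. Of the 21 genes of the list, 16 had a promoter in the table, and 5 of these held TTTGAA, 10 held CCAAT and 4 held both. The letters were searched after the values were seen, and a match is a description of the sequence.

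Outside the mitotic genes, the smallest p-values among genes lower in SM + MSTF without overlap belonged to genes of several functions. Lrrc36, a leucine-rich repeat gene, had the smallest p among them, 6.48e-05 unadjusted and 0.255 adjusted. It read 7.98, 7.72 and 7.59 in the control group and 6.23, 6.79 and 6.73 in SM + MSTF replicates 1, 2 and 3, a difference of -1.18. Csad, which makes hypotaurine on the way to taurine, read 11.12, 10.89 and 11.02 in the control group and 10.14, 10.24 and 9.74 in SM + MSTF replicates 1, 2 and 3. Its difference was -0.97 ± 0.15 (SE; unadjusted p = 9.70e-05, adjusted p = 0.255), with replicate 3 lowest. Mup4, a major urinary protein made in quantity by male rat liver, read 15.42, 15.35 and 15.38 in the control group and 13.71, 14.56 and 14.52 in SM + MSTF replicates 1, 2 and 3 (-1.12 ± 0.24, adjusted p = 0.328). The 3 controls lay close together, and every SM + MSTF array lay well below them. Bmf, a BH3-only protein that promotes apoptosis, read 11.11, 11.08 and 11.07 in the control group and 10.64, 10.16 and 10.03 in SM + MSTF replicates 1, 2 and 3 (-0.81 ± 0.16, adjusted p = 0.322). Trpv6, a calcium channel of the plasma membrane, read 6.41, 5.80 and 5.99 in the control group and 4.93, 5.25 and 5.21 in SM + MSTF replicates 1, 2 and 3, while the 4 SM arrays read 7.31, 6.93, 7.33 and 7.35. The difference from the controls was -0.93 in SM + MSTF and 1.17 in SM, with no overlap among the 3 groups. Rasgrf1, a Ras exchange factor, differed by -0.75, the phosphatidylethanolamine-binding protein Pbp2 by -0.81, the small leucine-rich proteoglycan osteoglycin (Ogn) by -0.62, C8h3orf18 by -0.75 and the initiation factor Eif1 by -0.65. A second probe for Ogn differed by -0.12 and one for Eif1 by -0.04, so their probes disagreed in size. The class II gene RT1-Bb, the last of these 12 genes with Cdc20, is described with the antigen genes. For Pbp2, C8h3orf18 and Eif1, as for Dusp8 among the genes of the next paragraph, all 4 arrays of slide 1, replicate 3 included, lay above all 6 arrays of slides 2 and 3. For 9 of the 12, all 4 SM arrays also lay below all controls.

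**Figure D2:**
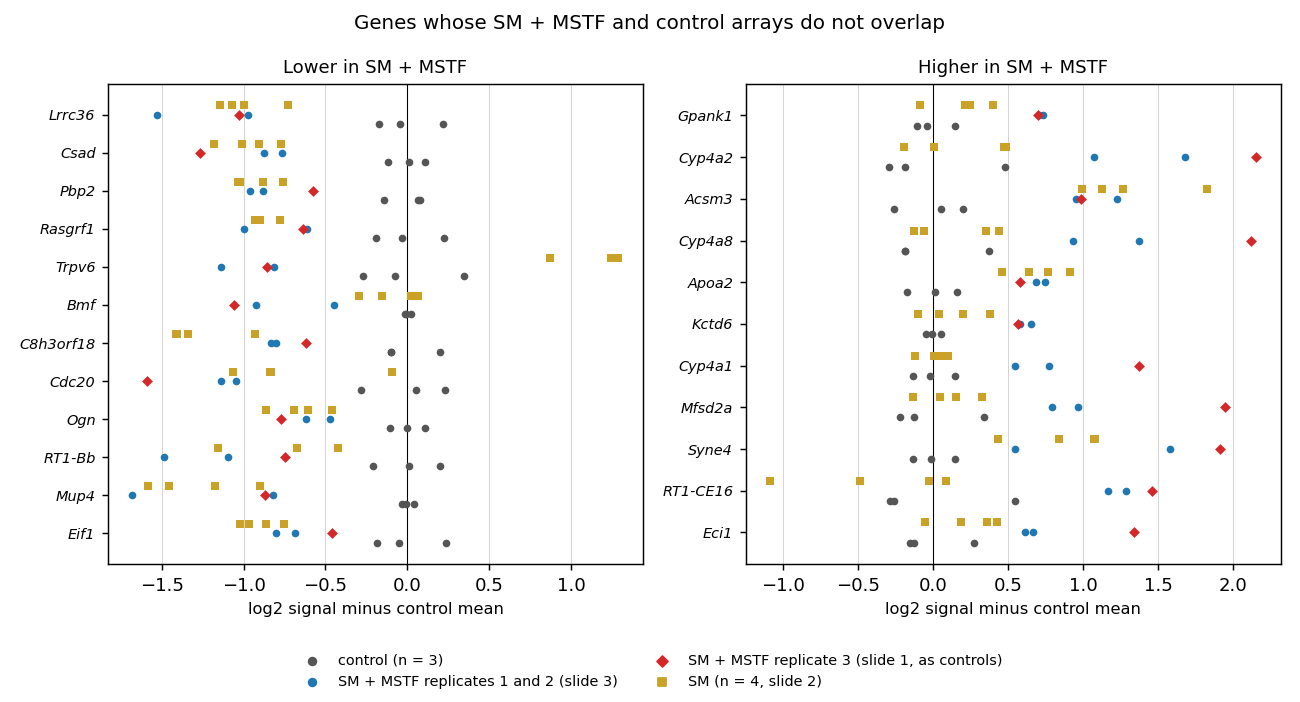
Log2 signal minus the control mean (x axis) for the 12 lower genes and 11 of the 12 higher genes with the smallest p among those whose SM + MSTF and control arrays do not overlap (y axis), with 1 point per array. The genes were chosen for not overlapping, so the gap itself is given by the choice; SM arrays lie with SM + MSTF for Lrrc36, Csad, Mup4 and Acsm3 and on the control side for the Cyp4a genes and RT1-CE16.

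Other members of the gene lists were lower with a wider spread. Ornithine aminotransferase (Oat) read 14.92, 15.61 and 14.95 in the control group and 14.44, 14.80 and 13.48 in SM + MSTF replicates 1, 2 and 3 (-0.92 ± 0.31, adjusted p = 0.409), and its second probe differed by -0.66. On the first probe all SM + MSTF arrays lay below the controls, and on the second they overlapped. Phosphoglycerate dehydrogenase (Phgdh), the first enzyme of serine synthesis, read 12.73, 11.47 and 12.95 in the control group and 11.37, 11.26 and 10.95 in SM + MSTF replicates 1, 2 and 3. Its control 2 lay near the treated arrays, apart from controls 1 and 3 (-1.19 ± 0.45, adjusted p = 0.439). Collagen Col1a1, the main fibrillar collagen of stellate cells, read 10.91, 11.14 and 10.99 in the control group and 9.56, 11.16 and 9.20 in SM + MSTF replicates 1, 2 and 3, so replicate 2 lay at the control level and the other two far below it (-1.04 ± 0.41, adjusted p = 0.451). Its second probe differed by -0.35. Of 24 stellate cell and matrix genes, 18 were lower, 1 at an unadjusted p of 0.05 with 1.5-fold, against 1.34% of all genes. The median was -0.25, with -0.21, 0.02 and -0.57 in replicates 1, 2 and 3. In replicate 2, 13 of the 24 were higher, and without replicate 3 none was lower by that rule and 2 were higher. The suppressor of cytokine signalling Cish differed by -0.79, the phosphatase Dusp8 by -0.59 and claudin 9 (Cldn9) by -0.81, and of these 3 only Cish overlapped with the controls. Dusp8, Cldn9 and Col1a1 are among 30 tested genes that the study tabulated from these arrays, which are therefore no independent choice. In that list 20 genes were lower and 10 higher, with a median of -0.14. By an unadjusted p of 0.05 with 1.5-fold 3 were lower, against 1.34% of all genes.

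The Cyp4a fatty acid hydroxylases were higher in SM + MSTF, and replicate 3 was highest for each. Cyp4a2 read 10.77, 10.87 and 11.54 in the control group and 12.74, 12.13 and 13.21 in SM + MSTF replicates 1, 2 and 3, a difference of 1.63 ± 0.31 (SE; unadjusted p = 0.000381, adjusted p = 0.322). Cyp4a8 read 12.86, 12.87 and 13.43 in the control group and 14.43, 13.99 and 15.17 in SM + MSTF replicates 1, 2 and 3 (1.48 ± 0.29, adjusted p = 0.322), and Cyp4a1 read 13.22, 13.39 and 13.11 in the control group and 14.01, 13.79 and 14.61 in SM + MSTF replicates 1, 2 and 3 (0.90 ± 0.19, adjusted p = 0.328). None of the 3 overlapped with the controls, and the SM arrays of Cyp4a1 read 13.29, 13.25, 13.34 and 13.12, at the control level. Cyp4a3 differed by 0.61 (adjusted p = 0.505), with replicate 3 alone far above the controls. The Cyp4a genes are close in sequence, and a transcript may bind the probe of another. Without replicate 3, Cyp4a1 passed the test (adjusted p = 0.0497). Within slide 1, replicate 3 alone lay above the control mean by 2.15 for Cyp4a2, 2.12 for Cyp4a8 and 1.37 for Cyp4a1. Of 32 cytochrome P450 genes the other 29 included none at an unadjusted p of 0.05 with 1.5-fold.

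Genes of fatty acid uptake and oxidation were mostly higher. Of 26 tested genes, 20 were higher, 4 at an unadjusted p of 0.05 with 1.5-fold and 9 without overlap, against 1.19% and 9.58% of all genes. The median was 0.28. The enoyl-CoA isomerase Eci1 of the mitochondrial pathway read 12.75, 12.78 and 13.18 in the control group and 13.57, 13.52 and 14.24 in SM + MSTF replicates 1, 2 and 3 (0.87 ± 0.21, adjusted p = 0.362). Ehhadh, the peroxisomal bifunctional enzyme, read 10.78, 11.29 and 11.44 in the control group and 11.70, 11.76 and 11.86 in SM + MSTF replicates 1, 2 and 3 (0.60 ± 0.18, adjusted p = 0.393). The fatty acid transporter Cd36 read 7.27, 7.71 and 7.87 in the control group and 9.03, 8.22 and 9.05 in SM + MSTF replicates 1, 2 and 3 (1.15 ± 0.29, adjusted p = 0.375), and Angptl4, an inhibitor of lipoprotein lipase, read 11.05, 10.76 and 10.82 in the control group and 11.16, 12.02 and 11.62 in SM + MSTF replicates 1, 2 and 3 (0.72 ± 0.28, adjusted p = 0.446). Each SM + MSTF array lay above each control for these 4 genes. Ehhadh and Cd36 were also higher in SM, by 0.74 and 0.83, whereas Angptl4 lay -0.44 from the control mean there. Mfsd2a, a transporter of lysophosphatidylcholine, read 6.29, 6.75 and 6.19 in the control group and 7.21, 7.38 and 8.36 in SM + MSTF replicates 1, 2 and 3 (1.23 ± 0.28, adjusted p = 0.353), with its second probe at 1.11. The carnitine palmitoyltransferase Cpt2, the carnitine carrier Slc25a20 and the trifunctional protein subunits Hadha and Hadhb, which did not overlap either, differed by 0.45, 0.40, 0.24 and 0.36. Bdh1, which interconverts ketone bodies, was lower without overlap (-0.38 ± 0.10, adjusted p = 0.375). Acadm, Acadl, Acads and Hadh, enzymes of the central steps, differed by -0.03, -0.14, -0.07 and -0.14. Without replicate 3 the count at an unadjusted p of 0.05 with 1.5-fold was 2 (Eci1 and Cd36).

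Both metallothioneins and hepcidin were higher in SM + MSTF, over controls that differed widely. Mt1 read 15.71, 16.54 and 14.91 in the control group and 17.42, 17.19 and 17.73 in SM + MSTF replicates 1, 2 and 3, a difference of 1.73 ± 0.52 (SE; unadjusted p = 0.00841, adjusted p = 0.393). Mt2A read 13.17, 14.33 and 12.53 in the control group and 15.20, 15.15 and 16.27 in SM + MSTF replicates 1, 2 and 3, a difference of 2.20 ± 0.63 (SE; unadjusted p = 0.00608, adjusted p = 0.393). The controls of both genes spread far wider than replicates 1 and 2, and every SM + MSTF array lay above every control. Of the 4 SM arrays, SM replicate 1 read 17.57 for Mt1, among the SM + MSTF values, and the others read 15.44, 16.01 and 16.21. Hepcidin (Hamp), the hormone that blocks iron export, read 10.83, 14.13 and 14.92 in the control group and 16.18, 16.46 and 16.52 in SM + MSTF replicates 1, 2 and 3. The SM + MSTF arrays lay close together while control 1 lay far below controls 2 and 3, and the difference was 3.09 ± 1.24 (SE; unadjusted p = 0.0325, adjusted p = 0.452). Ceruloplasmin (Cp), the copper-carrying ferroxidase, read 12.45, 12.81 and 12.51 in the control group and 13.20, 12.58 and 13.93 in SM + MSTF replicates 1, 2 and 3, with replicate 2 at the control level. These 4 were the members of the 20 tested genes of metal and iron handling at an unadjusted p of 0.05 with 1.5-fold. Of all genes 1.19% were higher by that rule. Without replicate 3 the list's count was 2, Mt1 and Mt2A. The transferrin receptor Tfrc differed by -0.60 (adjusted p = 0.628), Tfr2 by 0.48 (adjusted p = 0.393) and the ferritin chains Fth1 and Ftl1 by 0.12 and 0.20.

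The promoters of Mt1 and Mt2A are printed because both genes were high in the same arrays. They lie on chromosome 19, and the capitals mark the core of the metal response element (TGCGCNC or TGCACNC, on either strand) in the 250 bases before the RefSeq start (GRCr8).
Mt1 (chr19:10832976-10833225, - strand): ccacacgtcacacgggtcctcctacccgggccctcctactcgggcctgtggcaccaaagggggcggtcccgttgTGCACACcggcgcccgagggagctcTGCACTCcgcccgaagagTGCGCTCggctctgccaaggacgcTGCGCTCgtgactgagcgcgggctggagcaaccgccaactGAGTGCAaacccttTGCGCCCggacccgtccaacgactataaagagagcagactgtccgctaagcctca
Mt2A (chr19:10838709-10838958, - strand): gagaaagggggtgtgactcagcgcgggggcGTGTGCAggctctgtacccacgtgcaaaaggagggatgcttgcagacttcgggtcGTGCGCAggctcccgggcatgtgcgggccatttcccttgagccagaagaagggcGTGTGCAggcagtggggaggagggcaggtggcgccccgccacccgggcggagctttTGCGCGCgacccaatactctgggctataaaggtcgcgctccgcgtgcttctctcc
Mt1 held 6 matches, between 176 and 55 bases before the start, and Mt2A held 4, between 220 and 55 bases before it. Of all 33465 promoters, 20.6% held at least 1 match and 0.266% held 4 or more. The letters were chosen after the values were seen.

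Acute phase proteins, the plasma proteins that hepatocytes secrete in inflammation, were higher in 21 of 22 tested genes with a median of 0.28, and medians in replicates 1, 2 and 3 were 0.22, 0.06 and 0.68. Hamp and Cp passed the unadjusted test with 1.5-fold, and 7 of the 22 did not overlap, against 1.19% and 9.58% of all genes. Without replicate 3 none of the 22 passed it. Orm1, which encodes orosomucoid, read 2.68, 0.07 and 0.73 above the control mean in replicates 1, 2 and 3, and the lipopolysaccharide-binding protein Lbp 0.89, 0.05 and 2.53, so a different replicate was the highest for each. Kng1, a kininogen, read 15.29, 15.35 and 15.29 in the control group and 17.71, 15.62 and 17.39 in SM + MSTF replicates 1, 2 and 3 (1.60 ± 0.52, adjusted p = 0.393), with replicate 2 just above the highest control. Kng1 was the member among 25 complement and coagulation genes at an unadjusted p of 0.05 with 1.5-fold. In this list 22 of 25 genes were higher, beside 4873 of all 8834 genes. By replicate, 22, 15 and 22 of the 25 were higher in replicates 1, 2 and 3, with medians of 0.13, 0.01 and 0.38.

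Class I antigen genes were mostly higher, and class II genes had no common direction. RT1-CE16, a class I heavy chain, read 13.23, 12.42 and 12.40 in the control group and 13.85, 13.97 and 14.14 in SM + MSTF replicates 1, 2 and 3 (1.30 ± 0.31, adjusted p = 0.353). RT1-A2, another heavy chain, read 13.12, 12.98 and 12.94 in the control group and 13.55, 13.77 and 14.63 in SM + MSTF replicates 1, 2 and 3 (0.97 ± 0.34, adjusted p = 0.419), but its second probe differed by -0.89 and was high in replicate 3 only. Of 12 genes of the class I pathway, 11 were higher, these 2 at an unadjusted p of 0.05 with 1.5-fold, against 1.19% of all genes. The light chain B2m differed by 0.06. In replicate 1 the list's median was -0.08 with 5 of 12 genes higher, against 0.63 with 12 of 12 in replicate 3, and without replicate 3 RT1-CE16 alone passed that rule. RT1-Bb, a class II beta chain, read 9.22, 9.63 and 9.44 in the control group and 8.34, 7.95 and 8.69 in SM + MSTF replicates 1, 2 and 3 on 1 probe (-1.11 ± 0.23, adjusted p = 0.328). A second RT1-Bb probe read 10.83, 2.22 and 2.33 in the control group and 11.65, 11.17 and 10.95 in SM + MSTF, and the 4 SM arrays read 9.80, 2.11, 2.62 and 2.44. It was near background in controls 2 and 3 and in SM replicates 2, 3 and 4 and bright on the other arrays. This probe was thus tested only through the SM + MSTF group, and its SM + MSTF arrays lay above all controls (adjusted p = 0.463). No direction can be given for RT1-Bb, since its probes disagreed. The other 4 class II genes tested differed by -0.10 (RT1-Da), -0.13 (RT1-Db1), 0.23 (RT1-DMa) and -0.30 (Cd74). RT1 genes are many near-identical copies, and a probe can bind more than 1 of them. Cxcl13, a chemokine that attracts B cells, was lower, with 8.09, 8.65 and 8.39 in the control group and 7.5, 7.29 and 7.79 in SM + MSTF replicates 1, 2 and 3 (-0.85 ± 0.28, adjusted p = 0.393).

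The remaining genes higher in SM + MSTF without overlap with the smallest p had several functions. Apolipoprotein A-II (Apoa2) read 16.51, 16.85 and 16.70 in the control group and 17.44, 17.38 and 17.27 in SM + MSTF replicates 1, 2 and 3 (0.67 ± 0.14, adjusted p = 0.322). Acsm3, a medium-chain acyl-CoA synthetase, read 8.58, 8.89 and 9.04 in the control group and 9.79, 10.06 and 9.82 in SM + MSTF replicates 1, 2 and 3 (1.06 ± 0.21, adjusted p = 0.322). All 4 SM arrays also exceeded all controls for both, with SM differences of 0.69 and 1.30. Gpank1, a protein with G-patch and ankyrin repeat domains, read 11.13, 10.94 and 10.88 in the control group and 11.69, 11.71 and 11.69 in SM + MSTF replicates 1, 2 and 3 (0.71 ± 0.13, adjusted p = 0.322), but its second probe differed by 0.04. Kctd6 differed by 0.60 on its leading probe and 0.53 on the second and Syne4, a nesprin that ties the nucleus to the cytoskeleton, by 1.35. List members that passed the unadjusted test with 1.5-fold beside these were the stress kinase Plk3 (0.85), the transcription factor Atf4 (0.60), the chaperone Dnajb4 (0.78) and the pericyte gene Rgs5 (0.60).

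For 5 named genes, all arrays of 1 group were not well above background, so only a bound on the fold can be given. The bound sets the mean of the bright group against, per array, the lowest signal that counted as well above background. Mapkapk3, a kinase downstream of p38, was at least 1.64-fold higher in SM + MSTF, and Banp at least 1.21-fold higher. Knstrn, a protein of the mitotic spindle, was at least 2.32-fold lower, Retnlg, which neutrophils make, at least 2.29-fold lower and Gpm6b at least 1.91-fold lower. Retnlg does not stand for its list, since 5 of 8 tested neutrophil markers were higher and 3 lower, with a median of 0.34. These 5 genes were tested only through the group in which they were bright, and they were chosen for not overlapping. Their separation is therefore given by the choice, and their adjusted p, between 0.385 and 0.441, is no support for it.

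Lists for the injuries that alkylating agents are known for held few members off the control level. Of 18 p53 targets, Plk3 alone passed the unadjusted test with 1.5-fold, and Cdkn1a differed by -0.33, Mdm2 by 0.0 and Bax by 0.06 (unadjusted p of 0.372 to 0.988). Of 23 Nrf2 targets and 23 DNA repair genes, none passed it, with medians of -0.03 and 0.05. The checkpoint kinase Chek2 of the repair list differed by -0.42 ± 0.14 (adjusted p = 0.406). Hmox1, heme oxygenase, read 0.95, 0.87 and 0.55 above the control mean (0.79 ± 0.43, adjusted p = 0.568), and Nqo1 0.73, 0.95 and 0.92 over controls with an SD of 1.08. Of 16 heat shock genes and of 18 genes of the unfolded protein and integrated stress response, 1 each was higher by that rule, Dnajb4 and Atf4, and Phgdh of the 18 was lower. Ribosomal proteins (32 genes) and subunits of oxidative phosphorylation (33 genes) held none, with medians of -0.01 and -0.09.

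Other hepatic pathways held no member at an unadjusted p of 0.05 with 1.5-fold, and their largest differences came mostly from 1 or 2 rats. Cyp7a1, the rate-limiting enzyme of bile acid synthesis, lay 0.59, -1.80 and -1.89 from the control mean in replicates 1, 2 and 3, low in 2 of the 3 rats. Acox2, which shortens the bile acid side chain, lay 0.85, 0.91 and 0.29 above it. Insig1, a sterol-sensing regulator of cholesterol synthesis, lay 0.90, 0.65 and 0.21 above the control mean, lowest in replicate 3. The clock gene Per2 lay -0.11, -0.72 and -2.50 from that mean, so replicate 3 was again apart, in the direction opposite to its Per1. The nuclear receptors Nr0b2 and Nr1i3 (the constitutive androstane receptor) lay 0.55, -0.58 and 1.91 and -0.78, 0.44 and 1.88 from it, highest in replicate 3. Immediate early gene Fos lay -2.69, 0.49 and -0.10 and Ccn1 -1.25, 0.14 and -1.15 from it. Nearer agreement among the rats was seen for the estrogen sulfotransferase Sult1e1 (-0.24, -0.50 and -0.69) and the receptor tyrosine kinase Erbb2 (-0.55, -0.45 and -0.63), at adjusted p of 0.393 and 0.393. The plasma carrier transthyretin (Ttr), a hepatocyte marker, differed by -0.49 ± 0.14, the largest difference of its list after the transcription factor Foxa2 (-0.59 ± 0.33).

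Markers of blood and non-parenchymal cells were read as a check on the make-up of the samples. All 20 tested Kupffer cell and macrophage markers were higher in SM + MSTF, none at an unadjusted p of 0.05 with 1.5-fold. Of these markers 7 did not overlap, against 9.58% of all genes, with a median of 0.31 over the list. Their median was -0.09 to 0.14 in the control arrays and 0.20 to 0.36 in the SM + MSTF arrays. Among them were Cd68 (0.31), Cd163 (0.41), Vsig4 (0.36) and Clec4f (0.01), a lectin of rat Kupffer cells. The 11 erythroid markers had a median of 0.59 and none passed the unadjusted test with 1.5-fold. Alas2, the first enzyme of erythroid heme synthesis, read 9.58, 11.22 and 10.39 in the control group and 10.35, 11.56 and 11.06 in SM + MSTF replicates 1, 2 and 3, so the controls and the SM + MSTF arrays spread alike. Of 20 B cell and plasma cell markers 5 could be tested, 4 of them lower, and Cd79b, a chain of the B cell receptor, lay -0.74, -3.27 and -0.15 from the control mean in replicates 1, 2 and 3. Hepatocyte and endothelial markers had medians of -0.03 and 0.03, T cell markers of -0.02, natural killer cell markers of -0.06, neutrophil markers of 0.34 and bile duct markers of 0.05. The part of these cells in the differences above was not tested.

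Replicate 3 lay with the controls or beyond them on the other side for more than 1 of 2 probes at which replicates 1 and 2 were both off the control level. For 769 probes, both of those replicates lay beyond the 3 controls on the same side and at least 1.5-fold from their mean, 193 higher and 576 lower. Replicate 3 lay beyond the controls on that side for 375 of the 769 (48.8%), inside the control range for 265 and beyond it on the other side for 129. Over all tested probes replicate 3 lay above the control range for 28.8%, below it for 32.2% and inside it for 39.0%. Over the 576 lower probes the median difference was -0.93 in replicate 1, -0.92 in replicate 2 and -0.15 in replicate 3. The 193 higher probes had medians of 0.84, 0.91 and 0.34. With the roles turned, 1240 probes were higher and 1318 lower in replicate 3, and replicates 1 and 2 both lay beyond the controls on its side for 23.5% and 23.3% of them, against 17.3% and 15.6% of all tested probes. Their medians over these probes were 0.09 and 0.13 for the higher and -0.14 and -0.14 for the lower, against 0.87 and -0.86 in replicate 3. All these values share the 3 controls and are a description.

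**Figure D3:**
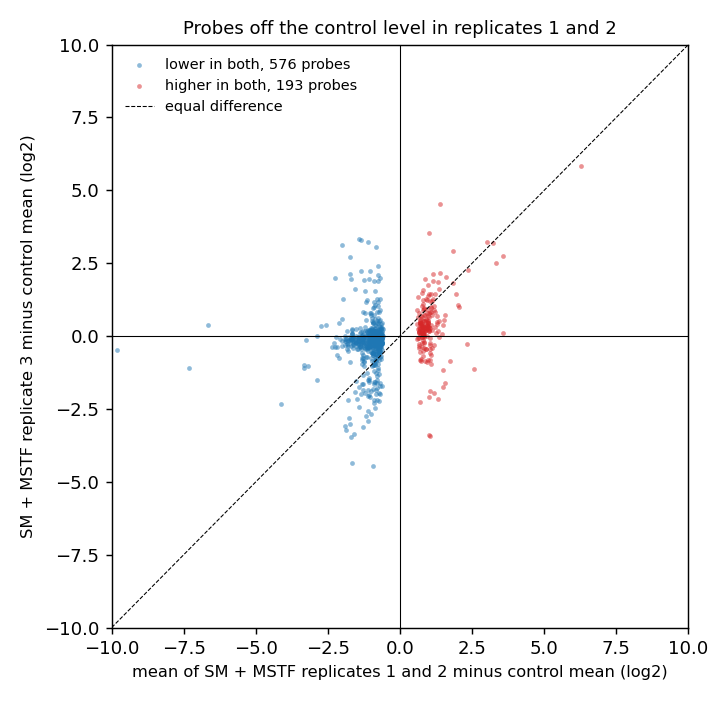
Mean of SM + MSTF replicates 1 and 2 minus the control mean (x axis, log2) against replicate 3 minus the control mean (y axis, log2) for the 769 probes off the control level in both of those replicates, with 1 point per probe and a dashed line of equal difference. The 576 lower probes gather along the horizontal line at 0, with a median of -0.15 in replicate 3, well above the dashed line.

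Without replicate 3, limma called 252 probes (1.16%) at an adjusted p of 0.05 with 1.5-fold, 8 higher and 244 lower. For 219 of the 252, all 4 arrays of slide 1, replicate 3 included, lay above all 6 arrays of slides 2 and 3. For 134 all 7 treated arrays lay off the controls on the same side, and 118 met both descriptions. Over all tested probes, slide 1 lay above the other 6 arrays for 3.65%. All 7 treated arrays lay above the controls for 2.06% and below them for 2.77%. The 252 were chosen by a difference of replicates 1 and 2 from controls on slide 1, so part of both patterns is given by the choice. Over the 244 lower calls the medians of replicates 1 and 2 were -1.03 and -1.11, that of the SM group -1.06 and that of replicate 3 -0.13. Ndufc2, a subunit of respiratory complex I, read 9.81, 9.72 and 9.80 in the control group and 7.86, 7.88 and 9.62 in SM + MSTF replicates 1, 2 and 3, and the 4 SM arrays read 7.70, 7.48, 7.71 and 7.81. The copper importer Slc31a1 read 9.54, 9.41 and 9.29 in the control group and 7.57, 7.67 and 9.08 in SM + MSTF replicates 1, 2 and 3, and the SM arrays read 7.31, 7.29, 7.54 and 7.67. In replicate 3 both lay just below the lowest control, and they were far lower on slides 2 and 3, in rats with and without MSTF. The spliceosome protein Snrnp48 (-1.16 and -1.05 in replicates 1 and 2, 0.19 in replicate 3), the ribosomal genes Rpl37al2 (-1.33 and -1.33, -0.01) and Rps26 (-1.03 and -1.11, -0.10), the cytochrome oxidase subunit Cox7c (-0.94 and -1.16, -0.11), the histone chaperone subunit Supt16h (-1.36 and -1.47, -0.02) and the SUMO ligase Nsmce2 (-0.91 and -0.80, 0.0) showed the same order. Slc45a3 and Pbp2 lay -0.33 and -0.58 from the controls in replicate 3, also beyond all controls. Of these 10 genes 4 had a second tested probe, and those probes differed between -0.43 and -0.05 over all 3 replicates. Over all probes tested, slide 1 lay above slides 2 and 3 without overlap and at least 1.5-fold for 387 probes and below for 46. The part of the slide in these differences was not tested.

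**Figure D4:**
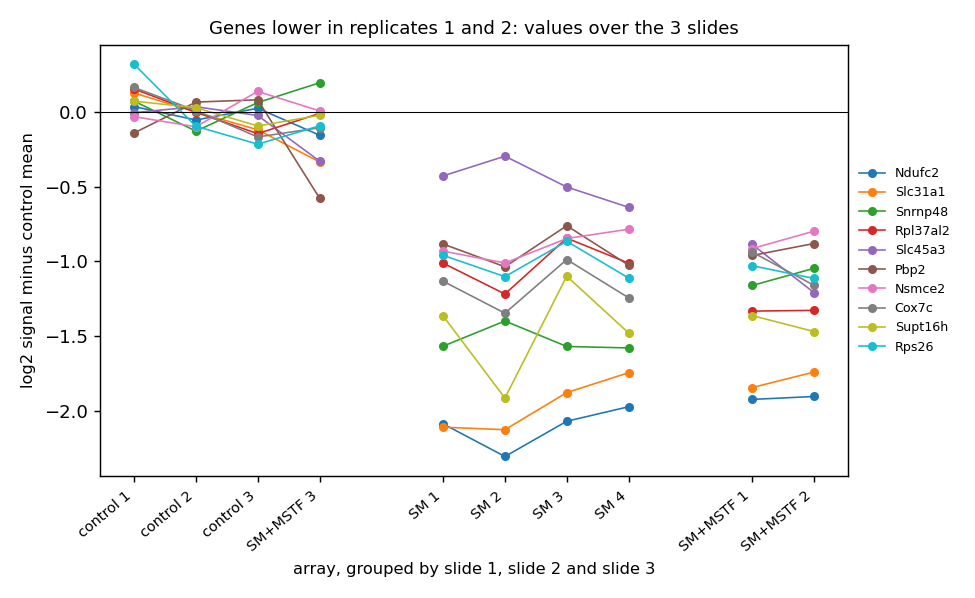
Log2 signal minus the control mean (y axis) on each array, grouped by slide (x axis), for the 10 named genes lower without replicate 3 that had the smallest p, with 1 colour per gene. Replicate 3 sits with the controls of its slide for most genes, between -0.58 and 0.19, while replicates 1 and 2 sit between -1.92 and -0.80.

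Over the 8 higher calls without replicate 3, the medians of replicates 1, 2 and 3 were 0.81, 0.78 and 0.76, and replicate 3 lay above all controls for 6 of the 8. Glucose-6-phosphate isomerase (Gpi) read 11.69, 11.51 and 11.56 in the control group and 12.43, 12.36 and 11.66 in SM + MSTF replicates 1, 2 and 3, with replicate 3 close to the controls. Zbed4, a zinc finger protein, read 5.48, 5.66 and 5.78 in the control group and 6.33, 6.44 and 5.74 in SM + MSTF replicates 1, 2 and 3, and replicate 3 lay inside the control range. Cyp4a1 and Hs3st6 were high in all 3 replicates. The zinc finger gene Zfp46, named after its values were seen, lay 0.73, 0.97 and 0.73 above the control mean. Neither Hs3st6 nor Zfp46 was well above background on all 6 arrays. Both were tested only through the SM + MSTF group, in which they were bright, so the agreement of their replicates is no support for a difference.

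Within slide 1, replicate 3 alone was called against its 3 controls at 278 probes (1.28%), 130 higher and 148 lower. This fit assumes that the lone array varies like the other groups, and it describes 1 rat. Among genes, 0.611% were called higher and 0.928% lower. Fatty acid synthesis was the list with the most calls, 6 of 19 genes lower, and its median was -1.32 in replicate 3 but 0.25 and 0.09 in replicates 1 and 2. Stearoyl-CoA desaturase (Scd) lay 1.12, -0.45 and -4.60 from the control mean in replicates 1, 2 and 3 (adjusted p = 0.014 in replicate 3). The other 5 were the carboxylase Acacb (-2.62), the elongases Elovl5 (-1.29) and Elovl6 (-2.29), malic enzyme Me1 (-2.08) and pyruvate kinase Pklr (-1.52). Fatty acid synthase (Fasn, -2.12, adjusted p = 0.0513) missed the threshold. The Nrf2 targets held 4 lower calls in replicate 3, Me1 with the transketolase Tkt (-0.85), the canalicular exporter Abcc2 (-1.49) and the epoxide hydrolase Ephx1 (-1.24), which the p53 list held with Phlda3 (-1.76). Over the 3 replicates together none of the 19 fatty acid synthesis genes passed the unadjusted test with 1.5-fold.

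Of the 42 lists, interferon-stimulated genes had the widest range of medians among the replicates. Their medians were -0.91, -0.09 and 1.18 in replicates 1, 2 and 3, and 20 of 21 were above the control mean in replicate 3 but 0 of 21 in replicate 1. Isg15, a ubiquitin-like antiviral protein, lay -2.02, -0.48 and 2.15 from the control mean, Ifit1 -0.68, 0.91 and 2.48 and the transcription factor Irf7 -1.22, 0.17 and 1.94. The controls differed by an SD of 0.68 for Isg15 and 0.96 for Ifit1, none of the 21 passed the adjusted test within slide 1, and their group differences lay near 0, with a median of 0.01. Glucocorticoid-responsive Fkbp5 (-0.57, -0.23 and 1.14 in replicates 1, 2 and 3) and the clock gene Per1 (-0.09, 0.22 and 1.18) were called higher in replicate 3. Acute phase Lbp, Cp and Cfb (2.53, 1.34 and 0.79 in replicate 3) were called too.

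**Figure D5:**
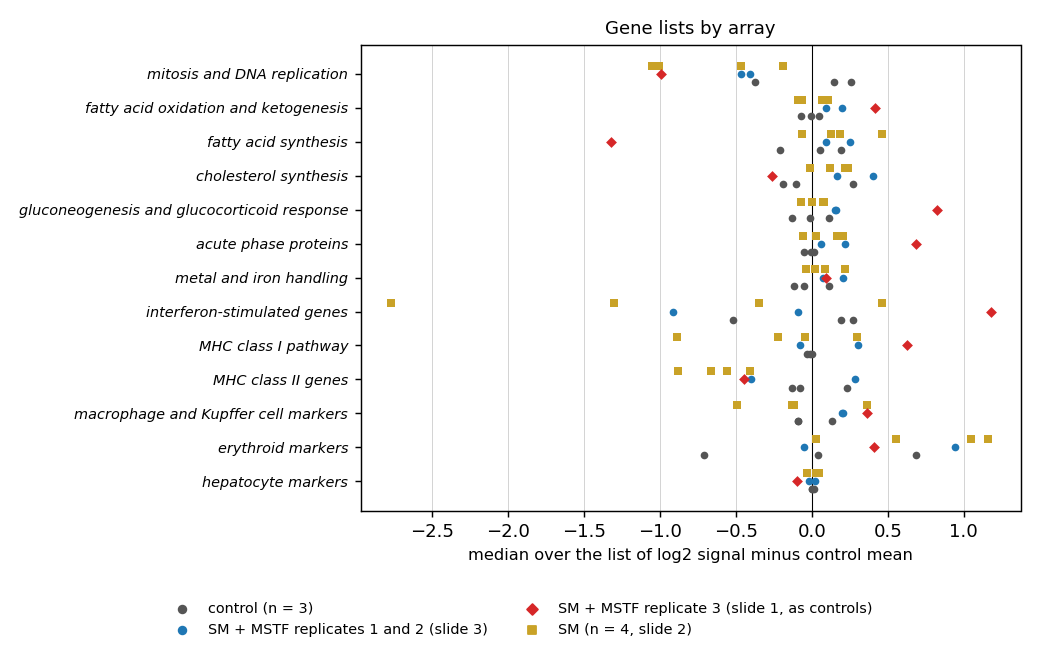
Median over each gene list (y axis) of log2 signal minus the control mean (x axis), with 1 point per array. Replicate 3 (red diamonds) stands apart for fatty acid synthesis at -1.32 and for interferon-stimulated genes at 1.18, while all 3 SM + MSTF arrays lie left of the controls for mitosis and DNA replication, at -0.46, -0.41 and -1.0.

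Most of the genes with the smallest p in replicate 3 alone were near the control level in the other replicates. The sialyltransferase St3gal2 read 5.75, 5.65 and 5.87 in the control group and 5.71, 5.77 and 8.50 in SM + MSTF replicates 1, 2 and 3, and the centrosomal gene Alms1 read 7.34, 7.43 and 7.37 in the control group and 7.33, 7.5 and 9.26 in SM + MSTF replicates 1, 2 and 3, with replicates 1 and 2 among or next to the controls. Ppfia2 (1.80), Gramd1a (1.47) and Stxbp5 (1.82) were likewise high in replicate 3, where replicates 1 and 2 lay between -0.13 and 0.21 from the control mean. Dopa decarboxylase (Ddc) read 14.50, 14.24 and 14.36 in the control group and 14.12, 14.22 and 12.50 in SM + MSTF replicates 1, 2 and 3, and the lysyl oxidase Loxl1 read 9.09, 8.99 and 8.95 in the control group and 8.92, 9.09 and 7.51 in SM + MSTF replicates 1, 2 and 3. Emp1 and the non-muscle myosin Myh10 lay -1.68 and -1.48 from the controls in replicate 3 and between -0.63 and -0.28 in the others. Over the 3 replicates together, a second probe for Ppfia2 differed by -0.32, against 0.52 on the probe above, so its probes disagreed in direction. The 2 other probes for Alms1 differed by -0.06 and 0.58, against 0.65. A second probe for Loxl1 differed by -0.32, against -0.50.

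The fit without replicate 3 and the fit of replicate 3 within its slide used the same 3 controls, so their calls are not independent. Some probes were called by both. There were 9, of which 7 differed in the same direction, and 4 of the 9 have a gene name. They were named after their values were seen. Csad was lower by both, with adjusted p of 0.0267 and 0.0191. Lcmt1, which methylates protein phosphatase 2A, read 12.86, 12.93 and 12.70 in the control group and 12.24, 12.17 and 11.13 in SM + MSTF replicates 1, 2 and 3, but its second probe differed by -0.13. Cyp4a1 was higher by both. Hs3st6, a heparan sulfate sulfotransferase, read 4.65, 4.26 and 4.49 in the control group and 6.21, 5.35 and 6.32 in SM + MSTF replicates 1, 2 and 3 and was higher by 1.49 ± 0.23 (SE; unadjusted p = 8.48e-05, adjusted p = 0.255), with the 4 SM arrays at 5.45, 5.20, 5.26 and 5.41, above the controls as well. Its probe was not well above background on all 6 arrays. It was tested only through the SM + MSTF group, in which it was bright. The size of its difference therefore rests on dim control values, and its p-values are no support for it. Of the 12 lower and the 12 higher genes with the smallest p without overlap, 5 higher and 2 lower were called in replicate 3 within slide 1, and 1 higher and 4 lower were called without it.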

How the data were processed

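The authors hybridized liver RNA of 10 rats to one-colour Agilent rat arrays, and, per the labels and the methods, read them with Feature Extraction 10.7 and normalized them by quantile. The deposited scanner files give a background-subtracted intensity per spot, and the deposited series matrix gives log2 values, which served as an alternative. Here the intensity was quantile normalized over the 10 arrays (R 4.3.3, limma 3.58.1), put on the log2 scale and averaged per probe, leaving out control and non-uniform spots. A probe was well above background on an array when the share of its spots marked so was at least 0.5. Probes were named through accessions in RefSeq of GRCr8 (17512 of 41012), and a gene on a list was read by its probe of highest mean signal. Groups came from the treatment labels. All 10 arrays entered the limma fit, with Benjamini-Hochberg adjustment over all 21638 probes. The fit within slide 1 used 1 mean per group and slide. Named genes were probes with 1 gene symbol, without LOC or RGD symbols and olfactory receptors: the 12 higher and 12 lower with the smallest p among those bright on all 6 arrays, at least 1.5-fold and not overlapping; the 3 largest bounds in each direction; the 5 higher and 10 lower called without replicate 3; the 5 higher and 5 lower called in replicate 3 within its slide; list members at an unadjusted p of 0.05 with 1.5-fold or, in lists with none, the 2 members with the largest difference; and Actb and Gapdh. Other list members are named as examples, and a few genes that the rule names are not reported here. Of 988 entries on 42 lists, 785 were tested. The members and lists were chosen with earlier results of these data known. The fits were tested on simulated data.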

Additional observations from a re-analysis of the deposited data

How the results depend on the processing

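The count of 0 adjusted calls was 0 in every setting run except 4. It was 73 with array weights (8 higher, 65 lower) and 278 with slide as a fixed block, where replicate 3 alone stood against the controls. Leaving out 1 array at a time gave 0 to 252, with 252 without SM+MSTF replicate 3 and 1 without SM+MSTF replicate 2. At an unadjusted p of 0.05 with 1.5-fold, the 666 probes became 298 with normexp background correction, 1167 with no filter on dim probes, 1733 with slide as a fixed block and 280 with the methods' t-test, or 0 of these after Benjamini-Hochberg adjustment. Leaving out 1 array gave 555 to 982. The replicate number as a block left 0 adjusted calls and 694 at the unadjusted rule. The numbers do not pair the samples, since deviations of same-numbered arrays correlated with 0.13, -0.08 and -0.06. Scaling to the 75th percentile gave 196 higher and 506 lower against 220 and 446. The median of replicate 3 over the 769 probes was -0.096. Without 1 control the probes were chosen anew, which gave 800 to 1026 probes. The median over these ranged from -0.10 to -0.07, from 0.22 to 0.49 over the higher and from -0.23 to -0.12 over the lower probes.

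Over 82 named probes and 22 settings, 1741 of 1799 values kept their direction and stayed short of the adjusted threshold, 45 passed it in the same direction and 13 turned. With slide as a fixed block Snrnp48 turned to 0.19, Nsmce2 to 0.0050, Actb to 0.16 and Gapdh to -0.19. Gapdh also turned to -0.0079 with 75th percentile scaling, -0.016 with normexp and -0.023 with a random slide block. Leaving out 1 array at a time gave -0.12 to 0.85 for Ppfia2, -0.019 to 1.38 for St3gal2, -0.79 to 0.00047 for Loxl1, -0.25 to 0.033 for Actb and -0.12 to 0.10 for Gapdh, and the first 3 turned without SM+MSTF replicate 3. Of the 8 list counts chosen after the data were seen, 6 moved without replicate 3: mitosis went from 11 to 6, fatty acid oxidation and metal handling from 4 to 2, acute phase from 2 to 0, class I from 2 to 1 and stellate cell genes from 1 to 0. The cause was not tested. Signal over background, 2.20 to 2.54 at the median spot, limits dim probes.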

Other observations

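Single SM + MSTF rats held some of the widest differences. Lipocalin 2 (Lcn2), a siderophore-binding protein of inflamed liver, lay 6.30, 0.88 and 0.12 above the control mean in replicates 1, 2 and 3 (adjusted p = 0.641). Fgf21, a hepatic hormone of fasting and stress, lay -0.58, 2.86 and -0.66 from it, high in replicate 2 only among the 3. Igfals, the acid-labile subunit that holds IGF in plasma, lay 0.34, 0.14 and -1.43 from it and was called lower in replicate 3 within its slide. None of these 3 genes passed the unadjusted test over the group.

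A few probes split into a high and a low level among the rats, called on and off here. The low level was not near background for every probe, and for Ces2e it reached 5.71. Over the 10 arrays, 14 tested probes had a gap of at least 3 log2 units between neighbouring values with at least 2 arrays on each side, and 5 of them have a gene name, 3 of which are RT1 genes. The second RT1-Bb probe and RT1-A3 were on in the same 5 arrays, control 1, SM replicate 1 and SM + MSTF replicates 1, 2 and 3. Only tested probes were searched. A probe near background in controls 2 and 3 was tested only if it was well above background on all 3 SM + MSTF arrays. For these 2 probes, that part of the pattern is given by the filter. RT1-A3 read 7.54, 3.55 and 2.33 in the controls and 8.11, 8.0 and 7.23 in SM + MSTF. RT1-CE10 was off in SM + MSTF replicates 1 and 2 only and read 8.84, 9.98 and 9.92 in the controls and 3.62, 2.20 and 9.98 in SM + MSTF. The other named probes were Cdc25a and Ces2e. No probe of the 14 was on in all 3 SM + MSTF arrays and in no control, or the reverse. These probes were chosen by their values after the data were seen, and the cause of the pattern was not tested.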
